A study of Mus musculus with 4 samples.

Results

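The 38 genes described here make cholesterol and fatty acids, control that synthesis, or move sterols out of the cell. They were selected by gene symbol from a list of known functions, and all 38 were present among the 16566 genes deposited for each library. All 38 also passed the filter on low counts that left 11611 genes for testing. They fall into 6 roles: 6 enzymes of the mevalonate arm, 11 enzymes from squalene to cholesterol, 5 genes of the SREBP control system, 4 of fatty acid synthesis, 7 of fatty acid desaturation and elongation, and 5 of sterol efflux, LXR and sterol transport.

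RNA was sequenced from neutrophils of C57BL/6 mouse bone marrow, stated to be over 95% pure and held in culture medium with 20% fetal bovine serum. One group received ruxolitinib, a JAK1 and JAK2 kinase inhibitor, and the other its vehicle of 80% glucose and 20% PEG300, each for 1 h. The dose is given as 0.1 µM in the treatment label and as 1 µM in the treatment protocol, so it is uncertain. Each group has 2 libraries, and nothing says that they come from separate animals or cultures, so a p-value measures only the spread between these libraries, which may be technical. The age and sex of the animals are not in the labels.

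Cells make cholesterol from acetyl-CoA through mevalonate, the isoprenoids and squalene. When membrane sterol is low, SCAP escorts the transcription factors SREBP1 and SREBP2 from the endoplasmic reticulum to be cleaved and activated, and the INSIG proteins hold them back when sterol is plentiful. Oxidised sterols activate the nuclear receptors LXR alpha and LXR beta, which raise the efflux pumps ABCA1 and ABCG1 and SREBP1 itself. Mature neutrophils are short-lived phagocytes that no longer divide.

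SREBP proteins bind sterol regulatory elements and act with the CCAAT-binding factor NF-Y, so the bases before the start sites of 5 genes are shown. They are Hmgcs1 and Msmo1, which are sterol enzymes among the more abundant of their roles, and Fasn, Elovl5 and Abca1, which were lowest in vehicle replicate 2. Each is the 200 bases before the start site in the RefSeq promoter table of GRCm38.p6, on the strand of the gene: Hmgcs1 at chr13:119690151-119690350 (plus strand), Msmo1 at chr8:64733579-64733778 (minus strand), Fasn at chr11:120824548-120824747 (minus strand), Elovl5 at chr9:77917165-77917364 (plus strand) and Abca1 at chr4:53159896-53160095 (minus strand). That start site can lie inside the RefSeq gene span. The Fasn window is within its span (120805958 to 120825166), and the Abca1 window overlaps its span, which ends at 53159988. Capitals mark the letters TCACNCCAC (a sterol regulatory element), CCAAT (an NF-Y box) or CACGTG (an E-box) on either strand, and in Fasn 2 NF-Y boxes on opposite strands overlap.
Hmgcs1: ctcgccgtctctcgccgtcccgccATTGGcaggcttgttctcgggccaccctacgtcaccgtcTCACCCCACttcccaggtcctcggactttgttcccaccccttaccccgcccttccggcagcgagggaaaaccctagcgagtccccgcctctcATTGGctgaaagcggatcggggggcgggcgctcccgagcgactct
Msmo1: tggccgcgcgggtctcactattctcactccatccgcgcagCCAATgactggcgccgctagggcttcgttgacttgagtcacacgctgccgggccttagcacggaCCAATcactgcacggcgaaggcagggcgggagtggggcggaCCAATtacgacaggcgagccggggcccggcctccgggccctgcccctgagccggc
Fasn: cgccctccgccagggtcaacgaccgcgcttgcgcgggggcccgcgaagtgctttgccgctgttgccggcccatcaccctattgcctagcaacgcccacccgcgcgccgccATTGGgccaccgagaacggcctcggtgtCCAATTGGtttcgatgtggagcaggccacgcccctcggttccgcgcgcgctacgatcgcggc
Elovl5: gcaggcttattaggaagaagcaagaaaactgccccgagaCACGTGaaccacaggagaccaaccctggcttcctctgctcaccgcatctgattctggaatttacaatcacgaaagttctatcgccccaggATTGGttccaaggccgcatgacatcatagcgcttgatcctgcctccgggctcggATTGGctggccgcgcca
Abca1: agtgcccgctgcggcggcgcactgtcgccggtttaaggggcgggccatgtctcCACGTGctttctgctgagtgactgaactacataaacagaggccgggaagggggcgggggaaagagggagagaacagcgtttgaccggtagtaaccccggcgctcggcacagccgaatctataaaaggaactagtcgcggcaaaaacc
Promoters of 250 bases before to 50 after the start site were in the table for 30 of the 38 genes, with 40 start sites. CCAAT was in a promoter of all 14 mevalonate and sterol enzymes that had one, in 9 of the 16 other members, and in 41.06% of all 27025 genes in the table. TCACNCCAC was in the promoter of Hmgcs1 alone among the 30, and in 1.44% of all genes. CACGTG was in a promoter of 7 of the 30, and in 8.09% of all genes. These matches describe letters in a short window and not binding.

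Total estimated counts ran from 14235511 to 15419579 per library. The 12 neutrophil markers, such as S100a9 and Ngp, summed to between 94907 and 118137 CPM (estimated counts scaled to library size by edgeR), and markers of other marrow cells were present at lower levels. Ruxolitinib replicate 1 and vehicle replicate 1 were the closest pair, with a coefficient of variation beyond counting noise of 3.63%, against 17.7% between the ruxolitinib libraries and 31.9% between the vehicle libraries. Vehicle replicate 2 stood apart, at 31.1% from ruxolitinib replicate 1 and 35.2% from ruxolitinib replicate 2.

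No cholesterol or fatty acid gene passed the test between ruxolitinib and vehicle, given the spread between libraries. With edgeR's quasi-likelihood test, 0 of 38 members passed an adjusted p of 0.05 (0% of all 11611 genes did), and no member had an adjusted p under 0.975. Without adjustment, 0 members lay below 0.05 (1.94% of all genes did), and DESeq2 and limma-voom each gave 0 members by both measures. The median log2 fold change was 0.01 over the members and -0.01 over all genes tested, with 20 members above 0 and 18 below. The 95% interval was more than 1 log2 unit wide for all 38 members, and even that of Srebf2, among the narrowest, ran from -0.67 to 0.53.

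In CPM, both ruxolitinib libraries lay above both vehicle libraries for 4 members, Mvd, Fasn, Elovl6 and Abca1 (14.5% of all genes tested did so). Both lay below for 6 members, Mvk, Pmvk, Lss, Nsdhl, Hsd17b7 and Acss2 (12.8% of all genes tested). Together these were 26.3% of the members, beside 27.3% of all genes.

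**Figure D1:**
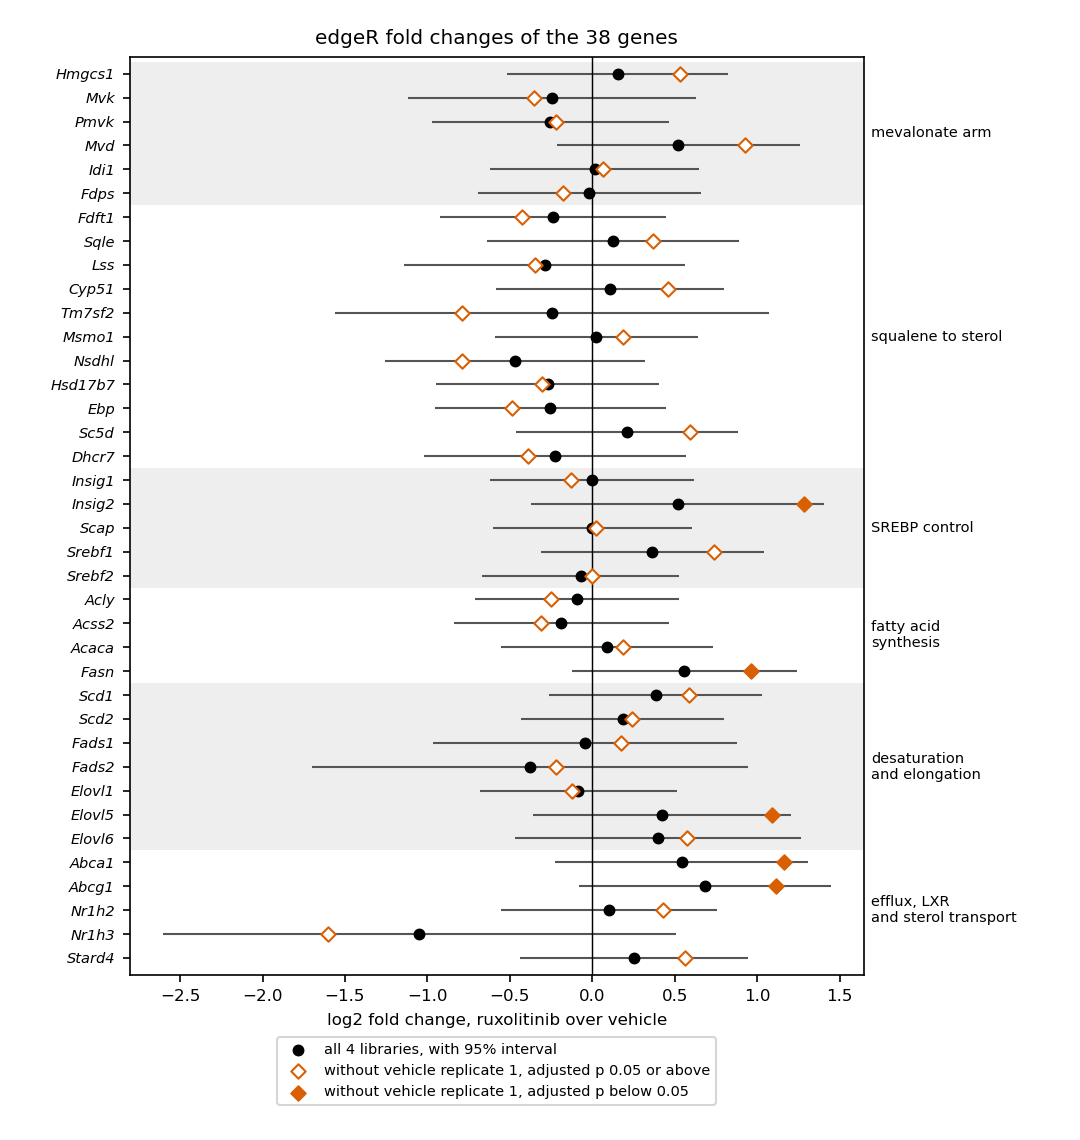
edgeR log2 fold change of ruxolitinib over vehicle for each of the 38 genes, grouped by role. Black points with 95% intervals use all 4 libraries, and each interval crosses 0. Diamonds leave out vehicle replicate 1, which sets both ruxolitinib libraries against vehicle replicate 2 alone, and the 5 filled ones passed an adjusted p of 0.05.

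Levels per transcript length (TPM) ranged over more than 100-fold among the members. Scd1, the stearoyl-CoA desaturase that makes monounsaturated fatty acids, was the highest at 164 ± 22.3 TPM (mean and SD over 4 libraries), followed by Nr1h2, which encodes LXR beta, at 134 ± 29.3 TPM. Scd1 was above Nr1h2 in every library, by least in vehicle replicate 1 (172 against 163 TPM). Acly, which supplies cytosolic acetyl-CoA from citrate, was at 78.2 ± 14.5 TPM, Elovl1, an elongase of saturated long chains, at 75.3 ± 12.9 TPM, and Srebf2, the SREBP of sterol genes, at 72.6 ± 12.1 TPM. The order of these 3 changed between libraries, with Acly the highest in vehicle replicate 2 (95.1 TPM) and Srebf2 in vehicle replicate 1 (81.3 TPM). At the low end 6 members averaged under 2 TPM: Fads1, Tm7sf2, Lss, Elovl6, Nr1h3 and Fads2. The median member stood at 13.2 TPM, close to the 13.3 TPM of all genes tested, and 21 of the 38 averaged above 10 TPM.

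TPM and CPM placed ruxolitinib replicate 2 differently. It had the lowest TPM of the 4 libraries for 22 of 38 members (55.1% of all genes tested), but the lowest CPM for only 9 (29.4% of all genes tested). Its TPM lay below that of ruxolitinib replicate 1 by a median log2(TPM + 1) difference of -0.23 over the members and of -0.25 over all genes, where the CPM differed by 0.05 and 0.00. The ratio of deposited TPM to FPKM was 1.46 in that library and 1.71 to 1.73 in the other 3. Differences between libraries are therefore given in CPM, and TPM is used to compare genes.

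**Figure D2:**
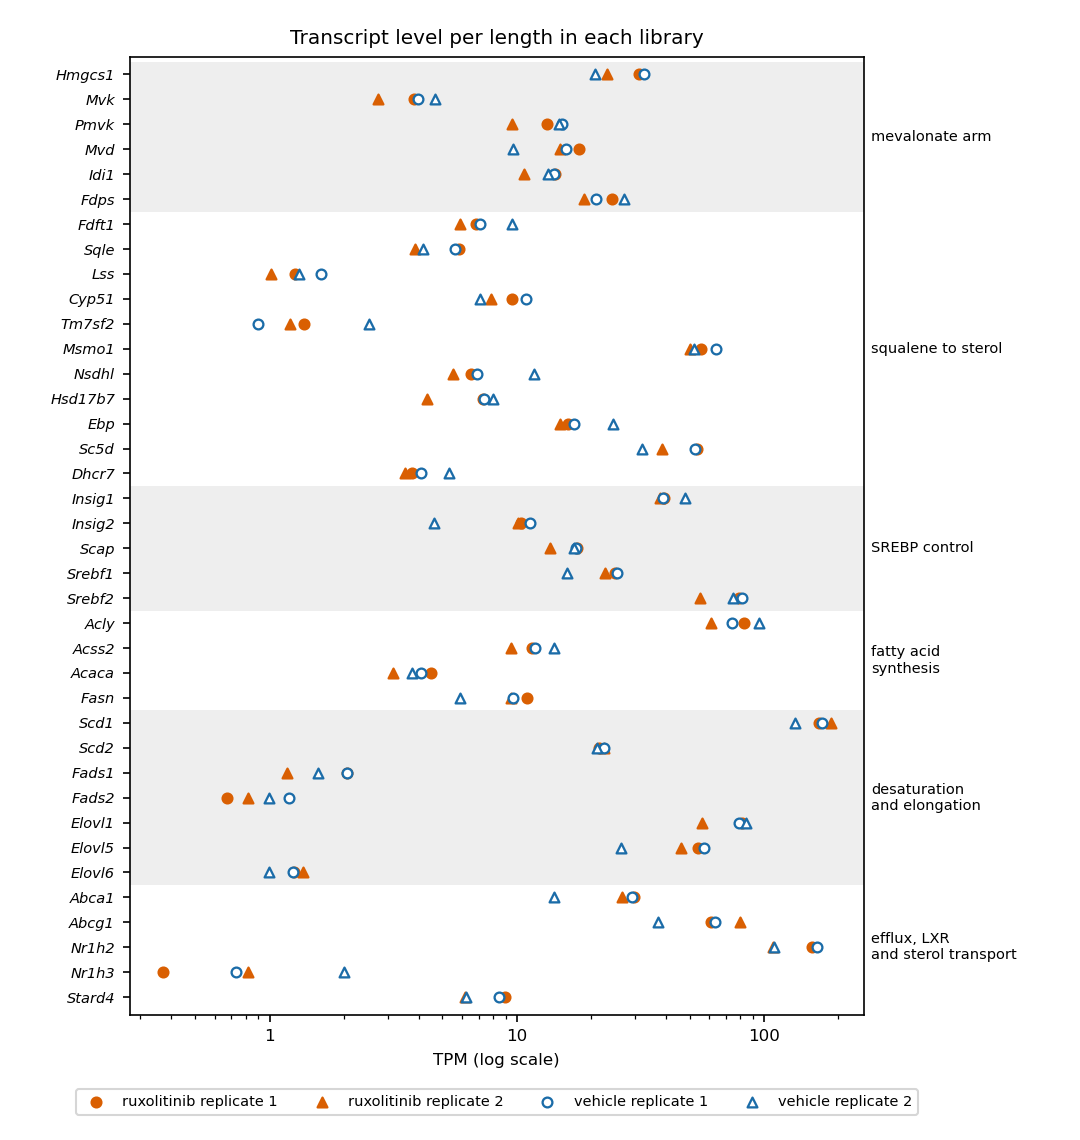
TPM of each gene in each library on a log axis, grouped by role, with ruxolitinib in filled orange and vehicle in open blue symbols. Scd1 and Nr1h2 are the highest and Nr1h3 and Fads2 the lowest. The filled triangle, ruxolitinib replicate 2, is the leftmost symbol for 22 genes.

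In the mevalonate arm, which turns acetyl-CoA into isoprenoid units, 0 of 6 enzymes passed the test and the median log2 fold change was -0.00. Mvd, the decarboxylase that makes isopentenyl diphosphate, was at 16.7 and 17.5 CPM with ruxolitinib, against 14.7 and 9.07 CPM with vehicle. The ruxolitinib libraries lay above both vehicle libraries, and most of the gap came from vehicle replicate 2. Its log2 fold change was 0.52 ± 0.34 (SE from edgeR, 2 libraries in each group), but 0.20 without vehicle replicate 2 and 0.92 without vehicle replicate 1. Hmgcs1, the synthase that makes HMG-CoA (Entrez 208715, chromosome 13, 119690351 to 119708260), had 60.3 and 55.4 CPM with ruxolitinib, against 63.6 and 40.4 CPM with vehicle. The groups overlap, and only vehicle replicate 2 was low. Pmvk, which phosphorylates mevalonate phosphate, had 8.04 and 7.28 CPM with ruxolitinib, against 9.27 and 9.0 CPM with vehicle, and Mvk, the kinase before it, at 3.52 and 3.16 CPM with ruxolitinib, against 3.62 and 4.30 CPM with vehicle. Neither gene overlapped between the groups, and the fitted log2 fold changes of -0.25 for Pmvk and -0.24 for Mvk were smaller than their standard errors of 0.33 and 0.40. Without vehicle replicate 2 the value of Mvk was -0.12. The isomerase gene Idi1 stayed between 20.9 and 22.5 CPM in all libraries, with the caution that its estimated counts were not whole in any library, as happens when reads are shared with similar sequences. Fdps, which makes farnesyl diphosphate, was at 15.5 and 15.1 CPM with ruxolitinib and at 13.6 and 17.4 CPM with vehicle, and both ruxolitinib values lay between the vehicle values.

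From squalene to cholesterol, 0 of 11 enzymes passed, 4 had log2 fold changes above 0 and 7 below, and the median was -0.24. That median was -0.35 without vehicle replicate 1 and -0.08 without vehicle replicate 2. Nsdhl, a dehydrogenase of sterol demethylation, was at 7.84 and 8.24 CPM with ruxolitinib, against 8.26 and 14.02 CPM with vehicle. Vehicle replicate 2 was high and the other 3 libraries were alike, and the log2 fold change was -0.47 ± 0.36 with all 4 and -0.048 without vehicle replicate 2. Hsd17b7, a reductase of the same steps, was at 18.3 and 13.7 CPM with ruxolitinib, against 18.7 and 19.9 CPM with vehicle, with ruxolitinib replicate 2 the low library. Ebp, the sterol isomerase, had 14.9 and 17.3 CPM with ruxolitinib, against 15.7 and 22.8 CPM with vehicle. Fdft1, squalene synthase, was at 13.9 and 15 CPM with ruxolitinib, against 14.5 and 19.6 CPM with vehicle, with estimated counts that were not whole. For both, the groups overlap and vehicle replicate 2 was again the highest.

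Some other enzymes of that stretch went the other way in the same library. Sc5d, the desaturase of the late pathway, was at 71.2 and 62.5 CPM with ruxolitinib and at 70.7 and 44.5 CPM with vehicle. Cyp51, which removes a methyl group of lanosterol, was at 23.2 and 23.7 CPM with ruxolitinib, against 26.4 and 17.2 CPM with vehicle, and Sqle, the squalene epoxidase, at 8.77 and 7.28 CPM with ruxolitinib, against 8.45 and 6.26 CPM with vehicle. In all 3 vehicle replicate 2 was the lowest library and vehicle replicate 1 was near the ruxolitinib values. Msmo1, the methyl sterol oxidase and the member of this role with the highest TPM, was at 54.0 and 61.1 CPM with ruxolitinib and 62.2 and 50.9 CPM with vehicle, and the groups overlap. Dhcr7, the last reductase of the pathway to cholesterol, was at 5.05 and 5.81 CPM with ruxolitinib, against 5.53 and 7.17 CPM with vehicle, and Lss, which closes the sterol rings, at 3.59 and 3.53 CPM with ruxolitinib, against 4.13 and 4.57 CPM with vehicle. For Dhcr7 and Lss vehicle replicate 2 was the highest library. Tm7sf2, a sterol reductase, had 16 and 16 estimated counts with ruxolitinib and 11 and 30 with vehicle, so vehicle replicate 2 was the highest and both ruxolitinib values lay between the vehicle values. The enzymes of one linear pathway thus did not share a direction between the vehicle libraries.

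Among the genes of SREBP control 0 of 5 passed, with a median log2 fold change of 0.00. Insig2, an endoplasmic reticulum retention factor for SCAP, was at 14.2 and 17.1 CPM with ruxolitinib, against 15.4 and 6.46 CPM with vehicle. Vehicle replicate 2 was the outlying library and vehicle replicate 1 lay between the ruxolitinib libraries. The log2 fold change of Insig2 was 0.52 ± 0.40 with all 4 libraries and 0.016 without vehicle replicate 2. Insig1, the partner gene that SREBP itself induces, was at 57.0 and 68.5 CPM with ruxolitinib and at 56.5 and 69.1 CPM with vehicle, with a log2 fold change near 0 (-0.00) and a 95% interval of -0.62 to 0.62. Its values paired by replicate number rather than by treatment. Srebf1, which encodes the SREBP of fatty acid genes, was at 59.9 and 68.0 CPM with ruxolitinib, against 60.8 and 38.5 CPM with vehicle, while Srebf2 was at 208 and 183 CPM with ruxolitinib, against 214 and 198 CPM with vehicle and Scap stayed between 39.9 and 41.5 CPM in all libraries. Scap, the escort, thus varied least and Srebf1 and Insig2 were low in vehicle replicate 2 alone. For Srebf1 the log2 fold change was 0.36 with all 4 libraries and 0.063 without that one.

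In fatty acid synthesis 0 of 4 genes passed, with a median of -0.00. Fasn, the multi-domain fatty acid synthase (Entrez 14104, chromosome 11, 120805958 to 120825166), was at 61.9 and 66.8 CPM with ruxolitinib, against 54.0 and 33.3 CPM with vehicle. Both ruxolitinib libraries were above both vehicle libraries, and the log2 fold change was 0.56 ± 0.31 (SE; edgeR adjusted p = 0.975). Without vehicle replicate 2 it was 0.24. Acly was at 204 and 187 CPM with ruxolitinib and 182 and 234 CPM with vehicle, and Acaca, the acetyl-CoA carboxylase that commits carbon to fatty acids, at 22.8 and 19.9 CPM with ruxolitinib, against 21.2 and 18.9 CPM with vehicle. Acss2, which makes acetyl-CoA from acetate, had 17.9 and 17.8 CPM with ruxolitinib, against 18.4 and 22.2 CPM with vehicle. Acly and Acaca overlapped between the groups, and Acss2 was lower with ruxolitinib by less than its standard error of 0.30.

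Of the desaturases and elongases 0 of 7 passed, with a median log2 fold change of 0.18. Scd1 was at 450.5 and 627 CPM with ruxolitinib, against 464 and 361 CPM with vehicle, a log2 fold change of 0.38 ± 0.29. Ruxolitinib replicate 2 was high, vehicle replicate 2 was low, and the remaining libraries differed little. Without ruxolitinib replicate 2 the log2 fold change of Scd1 was 0.12, without vehicle replicate 2 it was 0.21, without ruxolitinib replicate 1 it was 0.61 and without vehicle replicate 1 it was 0.59. Scd2, its close paralog, was at 65.9 and 86.0 CPM with ruxolitinib, against 68.8 and 64.8 CPM with vehicle. The 2 genes are similar in sequence, so some reads may be assigned to either. Their estimated counts were not whole only in ruxolitinib replicate 2, at 8525.93 for Scd1 and 1169.07 for Scd2. Elovl5, an elongase of polyunsaturated chains, was at 82.4 and 87.4 CPM with ruxolitinib, against 86.6 and 40.2 CPM with vehicle, so that 3 libraries were close and vehicle replicate 2 was low. The log2 fold change of Elovl5 was 0.42 with all 4 libraries and -0.038 without vehicle replicate 2. Elovl6, which lengthens palmitate, was at 4.19 and 5.66 CPM with ruxolitinib, against 4.13 and 3.33 CPM with vehicle, and Elovl1 at 83.8 and 72.1 CPM with ruxolitinib, against 79.7 and 85.6 CPM with vehicle. Vehicle replicate 2 was thus the lowest library for Elovl5 and Elovl6, and ruxolitinib replicate 2 for Elovl1. Fads1, a desaturase of polyunsaturated chains, stayed between 2.79 and 3.94 CPM, and Fads2, the desaturase that acts before it, between 0.53 and 0.95 CPM.

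Among the efflux and LXR genes, which hold the highest and the lowest fitted log2 fold change with all 4 libraries, 0 of 5 passed and the median was 0.25. Abcg1, which exports cholesterol to HDL (Entrez 11307, chromosome 17, 31057694 to 31117984), was at 200.4 and 326 CPM with ruxolitinib, against 206 and 122 CPM with vehicle. Its log2 fold change of 0.68 ± 0.35 (SE) had the smallest unadjusted edgeR p of the members at 0.0755, and an adjusted p of 0.975. The first library of each group was alike, so the difference lay between ruxolitinib replicate 2 and vehicle replicate 2. Without ruxolitinib replicate 2 it was 0.28, and without vehicle replicate 2 it was 0.35. Abca1, the pump that loads cholesterol onto apolipoprotein A-I, was at 173 and 193 CPM with ruxolitinib, against 169 and 82.2 CPM with vehicle. Vehicle replicate 2 was again the low library, and the log2 fold change was 0.11 without it and 0.54 with all 4. Nr1h2 was at 169 and 147 CPM with ruxolitinib and 176 and 118 CPM with vehicle, and Stard4, which carries sterol through the cytosol, at 22.4 and 20.2 CPM with ruxolitinib, against 21.2 and 14.5 CPM with vehicle. In both, vehicle replicate 2 was the lowest. Nr1h3, which encodes LXR alpha, had the most negative log2 fold change at -1.05 ± 0.71, but only 5 and 13 estimated counts with ruxolitinib and 11 and 30 with vehicle. That value was -0.15 without vehicle replicate 2, -0.46 without ruxolitinib replicate 1, -1.60 without vehicle replicate 1 and -1.97 without ruxolitinib replicate 2.

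**Figure D3:**
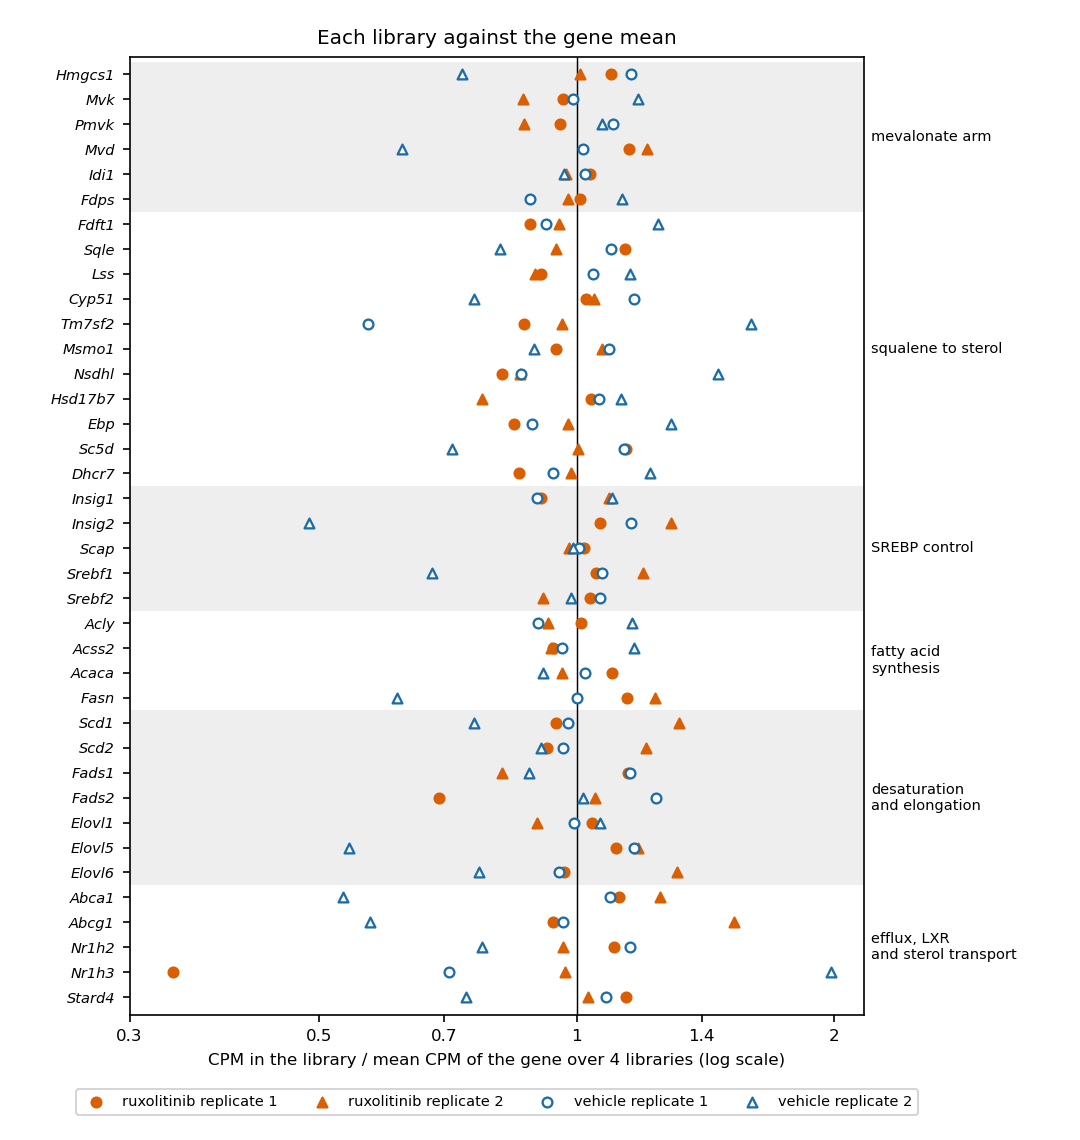
CPM of each gene in each library divided by its mean over the 4 libraries, on a log axis, grouped by role. The first replicates of ruxolitinib (filled circles) and vehicle (open circles) mostly lie close together. Vehicle replicate 2 (open triangles) is at the left for Insig2, Fasn, Elovl5, Abca1 and Abcg1 and at the right for Tm7sf2, Nsdhl and Nr1h3.

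Single libraries were then compared to see which of them carried these values. Ruxolitinib replicate 1 and vehicle replicate 1 differed by a median absolute log2 of 0.07 over the members (0.10 over all genes tested). The corresponding value was 0.18 between the ruxolitinib libraries (0.26 over all genes) and 0.37 between the vehicle libraries (0.40 over all genes). In these 3 pairs the members' value was below that of all genes, whereas for ruxolitinib replicate 1 set against vehicle replicate 2 the order was the other way, with 0.45 over the members and 0.39 over all genes. For ruxolitinib replicate 2 the members were below all genes against vehicle replicate 1 (0.19 and 0.26) and against vehicle replicate 2 (0.40 and 0.48). Ruxolitinib replicate 1 was at least 1.5-fold above vehicle replicate 1 for 0 members (1.71% of all genes tested) and that far below it for 2, Fads2 and Nr1h3 (1.95% of all genes tested), both with few counts. Ruxolitinib replicate 2 was at least 1.5-fold above ruxolitinib replicate 1 for 2 members, Nr1h3 and Abcg1 (7.91% of all genes tested), and that far below it for 0 (8.28% of all genes tested). Vehicle replicate 2 had the lowest CPM of the 4 libraries for 19 of 38 members (38.6% of all genes tested) and the highest for 14 (38.5% of all genes tested).

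Against vehicle replicate 1, it was at least 1.5-fold lower for 10 members (17.3% of all genes tested) and at least 1.5-fold higher for 3 (16.9% of all genes tested). The 10 were Hmgcs1, Mvd, Cyp51, Sc5d, Insig2, Srebf1, Fasn, Elovl5, Abca1 and Abcg1, with log2 differences between -0.62 for Cyp51 and -1.23 for Insig2. The 3 were Nsdhl, Tm7sf2 and Nr1h3, of which Tm7sf2 and Nr1h3 each had 30 estimated counts in vehicle replicate 2 and 11 in vehicle replicate 1. These values compare 2 libraries of the same treatment and have no replicate check. Of the markers of other cells, those of eosinophils, basophils and mast cells summed to 1036 CPM in vehicle replicate 2 and to 735 CPM in vehicle replicate 1, and those of monocytes and macrophages to 313 CPM in vehicle replicate 2 and 244 CPM in vehicle replicate 1. Sums of the remaining lists were also higher in vehicle replicate 2 than in vehicle replicate 1. B lineage markers were at 1202 against 957 CPM, erythroid markers at 406 against 368 CPM, and T and NK cell markers at 29.6 against 25.2 CPM. Neutrophil markers were at 105219 against 94907 CPM. None of the markers in those lists was at 0 in any library, and their part in the members' values was not tested. In these bulk samples fewer cells of a type and less RNA per cell cannot be told apart.

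**Figure D4:**
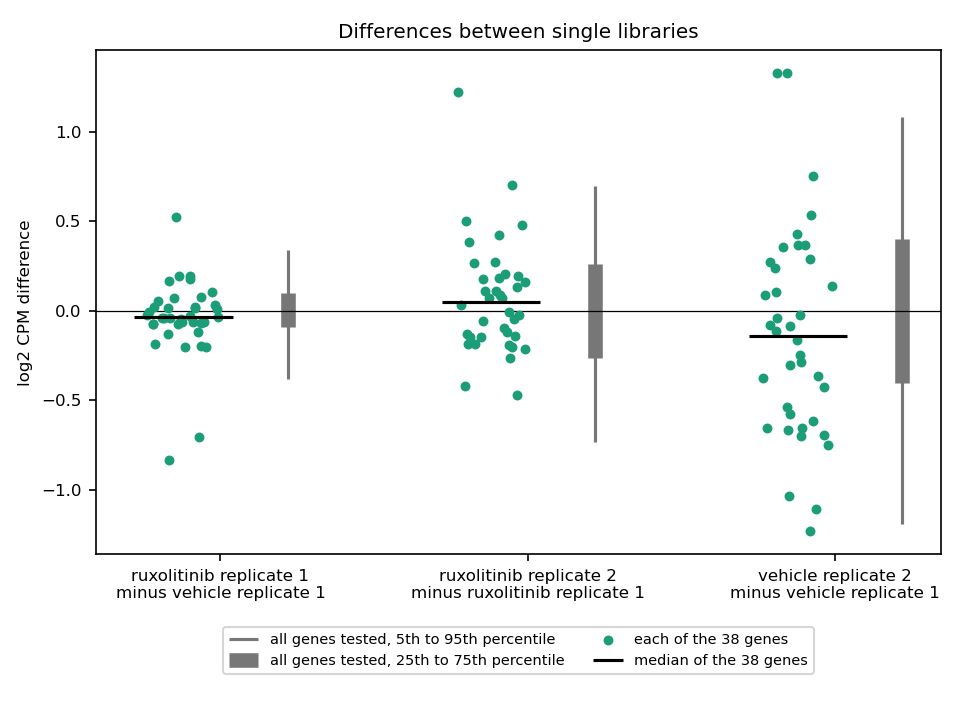
Difference in log2 CPM between 3 pairs of libraries, with each of the 38 genes as a green point, their median as a black line, and the middle 90% and 50% of all genes tested as grey bars. The spread is narrowest between the first ruxolitinib and vehicle libraries and widest between the vehicle libraries.

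Leaving out vehicle replicate 1 sets both ruxolitinib libraries against vehicle replicate 2, and that lone library is then assumed to vary as the ruxolitinib libraries do. In that fit 5 members passed, all higher with ruxolitinib (7.13% of all genes tested passed in that direction and 6.62% in the other). They were Insig2 (log2 fold change 1.29), Abca1 (1.16), Abcg1 (1.12), Elovl5 (1.09) and Fasn (0.96), with edgeR adjusted p between 0.00591 and 0.0150. They made up 13.2% of the members, and 13.7% of all genes passed in either direction. When ruxolitinib replicate 1 was left out 0 members passed (0.0833% of all genes did), and the count was also 0 when it was ruxolitinib replicate 2 (0.0499% of all genes) or vehicle replicate 2 (0.0169% of all genes). Ruxolitinib replicate 2 held the highest CPM for 10 members, which is 26.3% of the members beside 30.7% of all genes tested. These members were Mvd, Insig2, Srebf1, Fasn, Scd1, Scd2, Elovl5, Elovl6, Abca1 and Abcg1. In ruxolitinib replicate 2 the markers of eosinophils, basophils and mast cells summed to 286 CPM, against 835 CPM in ruxolitinib replicate 1. B lineage markers summed to 1682 CPM in ruxolitinib replicate 2, against 935 CPM in ruxolitinib replicate 1. The erythroid markers summed to 634 CPM in ruxolitinib replicate 2, against 362 CPM in ruxolitinib replicate 1, and the T and NK cell markers to 39.4 CPM, against 27.7 CPM in ruxolitinib replicate 1. Neutrophil markers summed to 118137 CPM in ruxolitinib replicate 2, against 96408 CPM in ruxolitinib replicate 1. Those of monocytes and macrophages were at 246 against 268 CPM. No marker in these lists was at 0, and their part was not tested.

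A further 48 genes of the same pathways were examined, of which 42 passed the filter on low counts. Again edgeR called 0, with 0 below 0.05 before adjustment and 0 calls by DESeq2 or limma-voom, and the median log2 fold change was 0.05. Without vehicle replicate 1 there were 3 calls, Acsl3 higher with ruxolitinib and Elovl7 and Mlx lower, where 13.7% of all genes tested were called in that fit. Acsl3, which activates fatty acids on lipid droplets, was at 10.2 and 19.6 CPM with ruxolitinib, against 10.2 and 6.26 CPM with vehicle, and ranked first of the 42 by p. Only the second replicates differed, in opposite directions from the first. Hacd3, a dehydratase of chain elongation, was at 10.2 and 14.3 CPM with ruxolitinib, against 8.70 and 6.33 CPM with vehicle, and both ruxolitinib libraries lay above both vehicle libraries. Slc25a1, which exports citrate from mitochondria for acetyl-CoA supply, was at 13.7 and 19.6 CPM with ruxolitinib and 13.3 and 9.33 CPM with vehicle, again without overlap. Acsl3 did not overlap either, but only by 10.23 CPM in ruxolitinib replicate 1 against 10.16 CPM in vehicle replicate 1. Of the 42 genes, 8 were higher with ruxolitinib without overlap (14.5% of all genes tested) and 10 lower (12.8% of all genes tested). Elovl7, an elongase, was at 14.8 and 15.6 CPM with ruxolitinib, against 14.6 and 32.2 CPM with vehicle, with vehicle replicate 2 the only library that differed much.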

How the data were processed

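Per the submitters' processing notes, the authors used Bowtie2, RSEM and DESeq2 with the build GRCm38.p6; versions, annotation and filters are not given in the sources used here. The authors deposited an estimated count, a TPM and an FPKM per gene for each library, per the file headers. Of the estimated counts, 91.0% to 91.1% were whole within 1e-06, and among the members those of 34 genes were whole in every library.

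Groups came from the treatment label and replicate numbers from the titles. Estimated counts were rounded. R 4.3.3 with edgeR 4.0.16 kept genes by filterByExpr (a count of about 10 in 2 libraries and 15 in total), scaled libraries by TMM, and tested group by quasi-likelihood, with Benjamini-Hochberg adjustment over all 11611 genes at 0.05. The common coefficient of variation was 25.7%. The SE is the log2 fold change divided by the square root of F. Differences between single libraries used log2 CPM with a prior count of 2. With 2 libraries a group an exact permutation test cannot give a two-sided p below 0.333, so none was run. The procedure was tested on simulated data without an outlying library, so that test does not show which changes could be detected here. Alternatives were RLE scaling, DESeq2 1.42.0, limma-voom (limma 3.58.1), a filter of 1 count in any library or of 50 counts in 2, removal of a per-library trend on gene length (lengths came from deposited FPKM and counts), a replicate block, and each library left out.

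In each role the 4 members with the smallest p and the most abundant by TPM are given per library, and of the other pathway genes the 4 with the smallest p. The members and lists were chosen with earlier results of these data known. Gene coordinates and promoters come from RefSeq tables of GRCm38.p6, and all 38 members matched the gene table by Entrez identifier.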

Additional observations from a re-analysis of the deposited data

How the results depend on the processing

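No member passed under RLE scaling, DESeq2, limma-voom, both count filters, the length correction or the replicate block, and none at an unadjusted p below 0.05 in these fits. Replicate numbers are shared by the groups but state no pairing. The difference between the vehicle libraries had a correlation over genes of 0.04 with that between the ruxolitinib libraries. This value cannot show whether same-numbered libraries are related. Ruxolitinib replicate 1 and vehicle replicate 1 were the closest pair (3.63%), so it compares mainly how the second replicates moved from similar first replicates. With the replicate block 16 of all genes passed, against 0 without it, and 0 members in either fit. When single libraries were left out, the count over all genes ran from 2 to 1645, over the members from 0 to 5 and over the other pathway genes from 0 to 3. The highest counts came without vehicle replicate 1. The median of the members ran from -0.034 to 0.12, of the mevalonate arm from -0.077 to 0.033 (-0.049 with the length correction), of squalene to sterol from -0.35 to -0.081, of SREBP control from 0.016 to 0.14, of desaturation and elongation from -0.038 to 0.37 and of efflux, LXR and sterol transport from -0.002 to 0.56. Under the settings that used all libraries, only genes near 0 changed sign. These were Idi1 at -0.002 and Scap at -0.016 (filter of 50 counts), Msmo1 at -0.014 (length correction), Insig1 at 0.009 (filter of 1 count) and 0.001 (limma-voom and the replicate block), and Scap at -0.001 (DESeq2 and RLE). Genes further from 0, such as Elovl5 at 0.42 with all 4 libraries, changed sign when a single library was left out. Without vehicle replicate 2, 15 members did so. With single libraries left out, sign changes came with these ranges: Hmgcs1 -0.14 to 0.53, Idi1 -0.032 to 0.065, Fdps -0.17 to 0.16, Sqle -0.081 to 0.37, Cyp51 -0.18 to 0.46, Tm7sf2 -0.79 to 0.66, Msmo1 -0.12 to 0.19, Ebp -0.49 to 0.029, Sc5d -0.091 to 0.60, Insig1 -0.14 to 0.14, Scap -0.020 to 0.029, Srebf2 -0.16 to 0.019, Acly -0.25 to 0.096, Acaca -0.001 to 0.19, Scd2 -0.020 to 0.37, Fads1 -0.30 to 0.18, Elovl1 -0.19 to 0.020, Elovl5 -0.038 to 1.09, Nr1h2 -0.17 to 0.43, Stard4 -0.002 to 0.56. The causes were not tested. With 2 libraries a group and the spread between vehicle libraries, the 95% intervals of all members span more than 1 log2 unit. Nr1h3, Fads2 and Tm7sf2 had 30 estimated counts or fewer in every library, and the filter of 50 counts left these 3 untested.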
